A study of Homo sapiens with 15 samples.

Results

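The DNA methylation that stayed missing after UHRF1 came back was measured as the difference between Recovery and Baseline within the same clone, in 6 of the 15 whole-genome bisulfite libraries of the study. The cells were HCT116, a human colorectal carcinoma line, in which doxycycline switches on a short hairpin RNA (shRNA) that targets UHRF1. Baseline libraries were taken on day 14 without doxycycline. Recovery libraries were taken on day 28, after 14 days in 10 ng/mL doxycycline followed by 14 days without it. Each of Cl.3, Cl.6 and Cl.9 is a clonal line and gave 1 library per stage, so n = 3 counts clones. The Knockdown libraries of the same clones (day 14 with 10 ng/mL doxycycline) were used to tell which features had lost methylation. Their levels were also set beside Recovery, and they entered some alternative fits. The Baseline and Recovery libraries of 2 bulk populations with an shRNA against DNMT1 (R1 and R2), under the same schedule, served for comparison with the clones. Between these groups, shRNA, kind of population and count table cannot be told apart. A day-28 library without doxycycline was not analysed here, so time in culture and recovery cannot be told apart, and the return of UHRF1 itself was not analysed here.

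DNMT1 copies methylation onto the new strand after DNA replication, and UHRF1 recognises hemimethylated CpGs and recruits DNMT1 to them. Where maintenance fails over repeated divisions, methylation is diluted. DNMT3A and DNMT3B add methylation de novo, and the study proposes that DNMT1 can also restore methylation that was lost. Highly methylated domains (HMDs) hold mostly early-replicating, gene-rich DNA, whereas partially methylated domains (PMDs) are mostly late-replicating and lose methylation over many divisions in cultured and cancer cells.

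The methylation level (mC) of a CpG is the share of its reads that are methylated, and differences are given in percentage points. The 6 libraries held 327205165 to 583447252 reads at CpGs, with a median depth per CpG of 11 to 13 reads (Cl.3, Cl.6) or 20 reads (Cl.9). Cl.9 came in a count table of its own. Of 29175448 CpGs on chromosomes 1 to 22 and X, 21669105 (74.272%) had at least 5 reads in all 6 libraries and served the regions and the counts over clones. Means over CpGs used those with 5 reads in both stages of the clone concerned, 22687934 in Cl.3, 23248157 in Cl.6 and 25181919 in Cl.9. The Cl.6 Baseline library stood apart at unmethylated DNA. In the first 500 bp downstream of the 5′ ends of cytosolic ribosomal protein genes, which should be unmethylated, it read 3.71%, against 1.25% to 1.45% in the other 4 Baseline libraries and 1.41% in Cl.6 at Recovery. The part of this difference in the Cl.6 changes was not tested.

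Single CpGs show how far DNA that stayed low lay from Baseline. The first 3 sequences below are 30-base windows of hg38 around a CpG in promoters that stayed low in all clones, chosen for the size of the shortfall, and the last is from a promoter that as a whole came back to within 5 points of Baseline. They are written 5′ to 3′ on the strand of the gene, with the CpG in capitals.
INTS6 promoter, chr13:51454374-51454403, minus strand: aaattaagaatttcCGgataaagaacaaac
SUPT4H1 promoter, chr17:58353347-58353376, minus strand: aatactctgtgcctCGctttttcagtccat
ABCG1 promoter, chr21:42199326-42199355, plus strand: aaagttaatctagaCGaaaatttgatttac
RNF135 promoter, chr17:30970725-30970754, plus strand: tttaagccaacggaCGaagacatccaacgg

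In the order Cl.3, Cl.6 and Cl.9, mC at the INTS6 CpG was 100%, 100% and 96.8% at Baseline, and it was 21.4%, 15.4% and 9.68% at Recovery, on 14 to 31 reads. The SUPT4H1 CpG went from 95%, 87.9% and 96.0% to 21.7%, 15.8% and 7.69%, and the ABCG1 CpG from 95.5%, 94.4% and 80% to 16.7%, 6.67% and 10.5%. These 3 CpGs read 80% or more at every Baseline and 6.67% to 21.7% in every clone 14 days after doxycycline was withdrawn. The RNF135 CpG read 100%, 61.1% and 92.3% at Baseline, 66.7%, 17.6% and 52.4% at Knockdown and 80.8%, 50% and 83.3% at Recovery. Its change from Baseline to Recovery was thus still -19.2, -11.1 and -8.97 points, on 12 to 26 reads.

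Across the genome, every clone ended below its own Baseline, by amounts that differed between clones. Mean mC went from 75.7% to 68.5% in Cl.3, from 76.7% to 66.9% in Cl.6 and from 73.1% to 55.3% in Cl.9. The change was -7.19, -9.86 and -17.8 points, so that Cl.9 missed the most methylation and Cl.3 the least. The mean change was -11.6 ± 5.52 points (SD, n = 3 clones; exact two-sided sign-flip permutation p = 0.25, the smallest possible with 3 clones). Within the count table shared by Cl.3 and Cl.6 it was -8.53 ± 1.89 points (SD, n = 2), and Cl.9, alone in its table, changed by -17.8 points. The bulk populations changed by -1.16 and -1.14 points. The clones were on average 10.5 points further below Baseline, with no overlap between the groups (exact two-sided permutation p = 0.2, the smallest possible for 3 against 2).

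**Figure D1:**
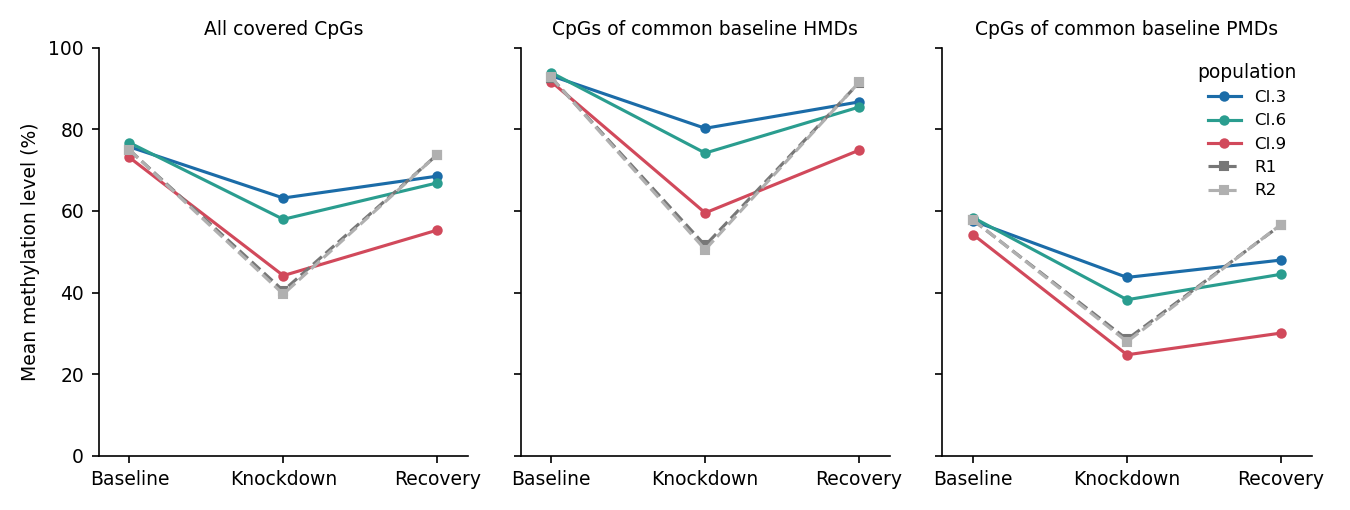
Mean methylation level (%) of all covered CpGs, of CpGs in HMDs common to the 3 clone Baselines and of CpGs in PMDs common to them, at Baseline, Knockdown and Recovery. Each point is 1 library (Cl.3, Cl.6 and Cl.9 in colour, R1 and R2 in grey); in all 3 panels every clone lies below its own Baseline at Recovery, and in PMDs Cl.9 ends at 30.1% from 54.2%, while R1 and R2 end close to where they began.

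The shortfall was present in HMDs and larger in PMDs. In HMDs that the authors had called in all 3 clones at Baseline, mC went from 93.1% to 86.7% in Cl.3, from 93.9% to 85.5% in Cl.6 and from 91.7% to 74.9% in Cl.9. In common PMDs it went from 57.6% to 48.0%, from 58.4% to 44.5% and from 54.2% to 30.1%. PMDs therefore lost more points from a lower start in all 3 clones. The change in HMDs was smaller than that in PMDs by 3.21, 5.45 and 7.34 points (mean 5.33 ± 2.07, SD, n = 3; exact sign-flip p = 0.25, the smallest possible), and in R1 and R2 the same difference was -0.0908 and -0.0655 points. Regions called unmethylated (UMRs) at Baseline in all 3 clones changed by an amount that went with their place. Inside common PMDs they read 23.2% at Baseline and changed by -9.36 points, as means over clones. Outside PMDs they could lose little and changed by -1.08, -3.28 and -1.46 points. The largest of these changes was that of Cl.6, whose Baseline library read 4.68% there, against 2.66% in Cl.3 and 2.52% in Cl.9.

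Domain calls at Recovery differed between the clones. Of the CpGs in HMDs of a clone's own Baseline, 85.9% were in HMDs again in Cl.3 and 82.5% in Cl.6, but 33.5% in Cl.9. Of the CpGs that lay in HMDs in all 3 Baselines, 35.8% were in HMDs again in all 3 clones, 47.6% in 2, 9.38% in 1 and 7.21% in none. The low share in Cl.9 limits the share in all 3 clones. Of the CpGs outside UMRs in all 3 Baselines, 429625 (1.76%) lay in UMRs at Recovery in all 3 clones. These CpGs were newly called in UMRs, which does not show that they were methylated before. CpGs of regions called low-methylated at Baseline were not left out. Low-methylated regions common to the clones read 16.5% at Baseline, as a mean over clones. The CpGs newly called in UMRs were in common PMDs in 41.7% of cases and in common HMDs in 5.15%. Of all CpGs outside UMRs at the 3 Baselines, 15.4% and 64.7% were. Domains were called separately in each library, so these shares move with how much was called, and an HMD by the authors' definition needs a high average mC.

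Among CpGs that were highly methylated at Baseline, isolated ones fell further than those with close neighbours. At highly methylated CpGs (mC of at least 0.85 at that clone's Baseline), low-density CpGs, whose nearest CpG is 20 bp or more away, changed by -10.4 (Cl.3), -12.9 (Cl.6) and -24.9 (Cl.9) points. High-density CpGs changed by -5.52, -7.29 and -14.6 points. The difference was -4.88, -5.64 and -10.2 points (mean -6.92 ± 2.90, SD, n = 3; exact sign-flip p = 0.25, the smallest possible), against -0.816 and -0.725 points in R1 and R2. CpGs chosen for a high Baseline value tend to read lower in any second library, and the bulk values carry the same choice. Without that choice, low-density CpGs in common HMDs changed by -8.46, -11.0 and -21.5 points and high-density ones by -3.63, -5.18 and -11.0 points. In common PMDs, where low-density CpGs started lower (45.2% to 49.5%, against 69.4% to 73.9%), the changes were close, at -10.2, -14.3 and -23.8 points for low density and -8.61, -13.2 and -24.7 points for high density, and in Cl.9 the order was turned. Among highly methylated CpGs of common PMDs, which started alike, the mean change over clones was -28.3 points at low and -18.7 points at high density. The bulk means there were -5.14 and -3.47 points.

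The change grew with the distance to the nearest CpG, mostly over the first 20 bp, and levelled off at about 36 bp. CpGs 2 bp apart changed by -1.996, -2.996 and -5.98 points in the 3 clones, those 10 bp apart by -5.78, -7.72 and -15.6 points and those 20 bp apart by -8.97, -11.5 and -22.9 points. At 36 bp the change was -11.1, -13.9 and -26.9 points, and at 100 bp it was -11.0, -13.4 and -25.9 points. The course was uneven, with a mean over clones of -17.3 points at 36 bp and -15.2 points at 38 bp. The curves of the 3 clones had the same shape at different depths. The bases around the CpG went with it too. Among highly methylated CpGs with no other CpG within 35 bp, those flanked by A or T on both sides changed by -22.2 points on average over clones and those flanked by C or G by -11.6 points.

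**Figure D2:**
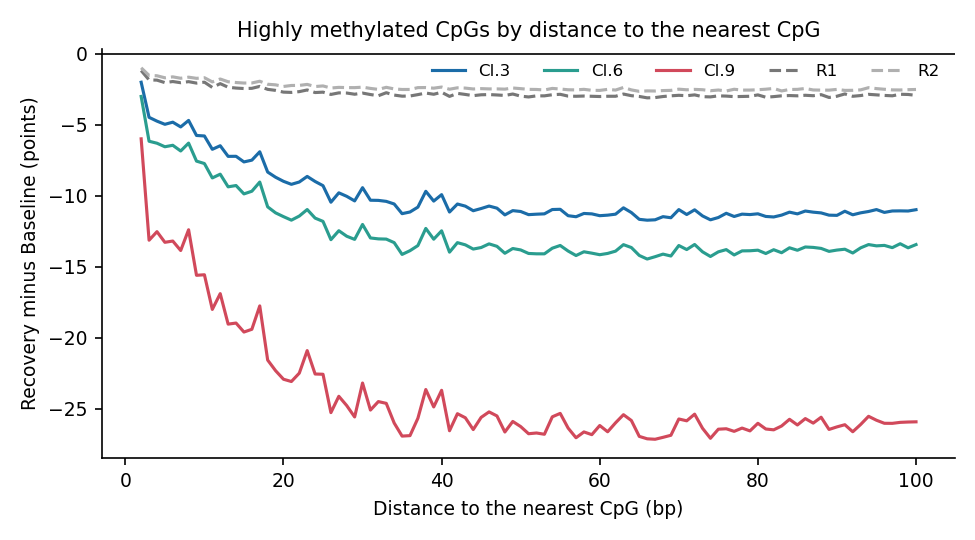
Mean change from Baseline to Recovery (percentage points) at highly methylated CpGs, by distance to the nearest CpG (bp), with 1 line per population. The 3 clone lines fall most over the first 20 bp and less, and unevenly, up to about 36 bp, where Cl.9 reads -26.9 points. Beyond it they show no further steady fall, while the lines of R1 and R2 stay near 0.

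A small set of CpGs was short in all 3 clones at once. Of the 12404210 CpGs that were highly methylated in all 3 Baselines, 225006 (1.81%) were at least 0.3 below Baseline in all 3 clones, 75.1% were short in none and 3897669 (31.4%) lay within 0.1 of Baseline in all 3. The share was 7.47%, 10.3% and 27.4% in Cl.3, Cl.6 and Cl.9 taken singly, 0.783% and 0.707% in R1 and R2, and 0.0236% in both bulk populations at once. Leaving out Cl.3 raised the joint share to 5.87%, leaving out Cl.6 to 4.10% and leaving out Cl.9 to 2.78%. CpGs short in all clones had their nearest CpG at a median of 41 bp and were flanked by A or T in 45.6% of cases, against 22 bp and 20.5% over all CpGs highly methylated in the 3 clones. Low-density CpGs had a joint share of 2.73% and high-density CpGs one of 0.759%, and the share was 3.21% in common PMDs and 1.55% in common HMDs. It was highest of the classes counted, at 5.73%, where no other CpG lay within 35 bp and both flanking bases were A or T. In high-density CpGs of common HMDs, 45.5% were within 0.1 of Baseline in all clones, against 4.26% at low-density CpGs of common PMDs.

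Methylated and unmethylated reads of each region entered the quasi-likelihood test of edgeR, with the clone as a block and Benjamini-Hochberg adjusted p-values over all regions of a kind. Of 28101 windows of 100 kb, 27172 were called lower at Recovery (96.7% of all), and in 84.5% of windows all 3 Recovery values lay below all 3 Baseline values. None was called higher, also at an unadjusted p under 0.05, and limma called none higher either. The number called, but not the size of the change, rested on Cl.6. Without it 0 windows were called lower (5203 at an unadjusted p under 0.05), against 25607 without Cl.3 and 26995 without Cl.9, while the mean genome-wide change was -12.5 points without Cl.6 against -11.6 with it. The 2 clones left in that test, Cl.3 and Cl.9, differed most from each other in their change. The direction was shared by all clones, since 28059 windows lay below their own Baseline in all 3 clones. A call of lower was thus the rule for windows, and what set windows apart was the size of the change. The median change was -7.33, -10.1 and -17.2 points in the clones, against -1.07 points in R1 and -1.12 points in R2.

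**Figure D3:**
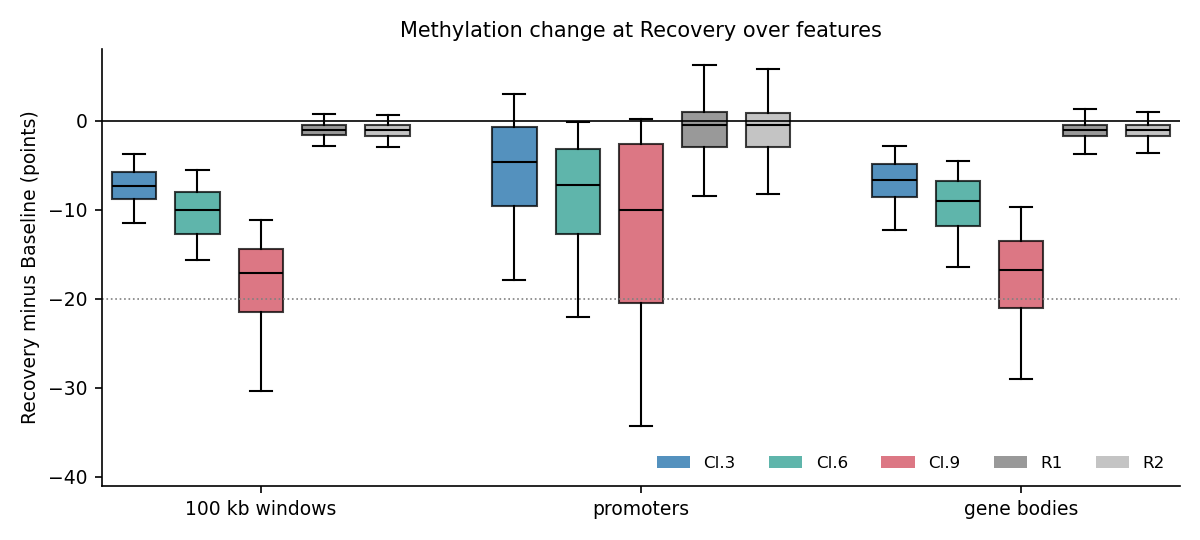
Change from Baseline to Recovery (percentage points) over 100 kb windows, promoters and gene bodies for the 3 clones and for R1 and R2. Boxes run from the lower to the upper quartile with the median as a line, whiskers reach from the 5th to the 95th percentile, and the dotted line marks 20 points below Baseline; the clone boxes of windows and gene bodies lie wholly below 0, and the boxes of R1 and R2 lie close to 0.

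Only 4 windows (0.0142% of all) were 20 points or more below Baseline in every clone. The 3 contiguous ones cover chr5:32900001-33200000, which no protein-coding gene overlaps. The first of them, chr5:32900001-33000000, read 78.2%, 81.8% and 76.7% at Baseline and 55.5%, 59.6% and 35.3% at Recovery in Cl.3, Cl.6 and Cl.9 (log2 odds ratio -1.91 ± 0.31, SE, edgeR adjusted p = 1.018e-07). The window next to it fell from 82.3%, 84.4% and 81.5% to 59.8%, 62.3% and 43.7%, and the third from 77.1%, 82.9% and 74.1% to 56.7%, 61.1% and 38.0%. The fourth window, chr11:58700001-58800000, holds part of GLYAT, a mitochondrial glycine N-acyltransferase, and went from 74.2%, 73.7% and 64.3% to 52.2%, 53.0% and 24.5%. In these 4 windows, chosen for a large fall, no Recovery value reached any Baseline value, which was so in 84.5% of all windows. None of the 4 was called without Cl.6. Their summed reads gave Wilson 95% intervals that reach 0.644 to 1.26 points to either side, which cover counting error only.

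A window had to be within 5 points of Baseline in every clone after losing 10 points or more in every clone at Knockdown to count as back. Of 23927 windows with such a loss, 2 were back (0.0071% of all). In chr4:110100001-110200000, which holds part of ELOVL6, a fatty acid elongase, mC was 76.4%, 75.04% and 68.9% at Baseline, 65.1%, 63.0% and 48.6% at Knockdown and 72.6%, 72.5% and 64.1% at Recovery. The other, chr16:29500001-29600000, holds part of NPIPB12, 1 of a family of near-identical copies, and rested on 75 CpGs, so its value is uncertain. Without Cl.9, 181 windows were back, and without Cl.6, 4. With 10 points or more in every clone as the threshold for a shortfall, 2814 of all 28101 windows were low. Such windows made up 21.7% of those almost wholly in common PMDs and 2.29% of those almost wholly in common HMDs. Among windows with no CpG in common HMDs or PMDs they made up 13.0%. The largest changes were partly shared between clones: the tenth of windows with the largest fall in 1 clone held 36.4% to 52.0% of that of another.

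Promoters were more varied than windows. A promoter began 1 kb before the 5′ end of a protein-coding gene and ended 100 bp after it. That 5′ end is the outermost one annotated for the gene, and whether it is the start used in these cells was not tested. Of 17123 promoters, 10006 were called lower (58.4% of all) and none higher, also at an unadjusted p under 0.05 or by limma, which called 7545 lower. All 3 Recovery values lay below all 3 Baseline values in 46.8% of promoters. Without Cl.6, 5361 were called lower and 2 higher, and without Cl.9, 6274 lower and 1 higher. The calls were most frequent among promoters that were methylated to begin with. Of 4108 promoters with 80% or more at every Baseline, 3754 were called lower, and their median change was -7.14, -9.48 and -20.1 points in Cl.3, Cl.6 and Cl.9. Promoters under 5% at Baseline changed by a median of -0.37, -2.60 and -0.54 points, and 1674 of those 3350 were called lower. The median of -2.60 is that of Cl.6, whose Baseline library read high at unmethylated DNA. Under 5% at Baseline, 700 were called without Cl.6, 1022 without Cl.9 and 1893 without Cl.3, and at 20% to under 50% the 1285 calls became 422, 618 and 1422.

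In 219 promoters (1.28%) 20 points or more were missing in every clone. Their median change was -23.7, -25.7 and -36.7 points, against -4.61, -7.22 and -9.99 points over all promoters and -3.24 and -2.98 points at the same promoters in R1 and R2. They held a median of 17.3 CpGs per kb, against 20.9 over the 6248 promoters that had lost 10 points or more at Knockdown in every clone. Of promoters with 50% or more at every Baseline, 3.87% were low under 10 CpGs per kb, and 2.59%, 2.21% and 2.55% at 10 to under 20, 20 to under 40 and 40 or more CpGs per kb. At the threshold, ATP2C1 lay just inside with a smallest deficit of 20.0 points and NDUFV1 just outside with 19.99. Without Cl.3 the count was 946 and without Cl.6 it was 407, as fewer clones had to share the shortfall.

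The 10 promoters with the largest shortfall that all clones shared belonged to genes of unlike function. INTS6 encodes a subunit of the Integrator complex, which processes RNA polymerase II transcripts. Its promoter (chr13:51454164-51455264, 9 CpGs) read 94.6%, 90.7% and 92.4% at Baseline and 52.5%, 53.3% and 41.7% at Recovery in Cl.3, Cl.6 and Cl.9 (log2 odds ratio -3.72 ± 0.44, SE, edgeR adjusted p = 3.582e-08). In Cl.3 its value at Recovery was that of Knockdown, 52.5%. The promoter of GGT5, a gamma-glutamyltransferase, went from 94.3%, 82.2% and 88.6% to 47.2%, 7.32% and 51.9%, so that Cl.6 lost nearly all of it. SUPT4H1, the SPT4 subunit of a transcription elongation factor, went from 93.5%, 84.7% and 90.3% to 58.2%, 49.6% and 36.0%. The Baseline and Recovery values of these 3 promoters did not overlap, as in 207 of the 219 low promoters. This follows in part from the choice of a large fall in every clone.

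ABCG1, a cholesterol exporter, went from 94.9%, 92.0% and 87.4% to 52.2%, 59.7% and 40.9%. RRAGD, a Rag GTPase that signals amino acids to mTORC1, went from 72.4%, 78.4% and 64.4% to 35.05%, 43.0% and 21.3%. The promoter of C1QTNF7, a secreted C1q-domain protein, went from 83.1%, 75.8% and 85.1% to 45.8%, 43.2% and 18.9%, and in Cl.3 and Cl.9 it stayed where Knockdown had left it, at 45.7% and 19.2%. At C1QTNF7 the bulk populations differed from each other, with a change of -17.6 points in R1 and of 0.96 points in R2. SPRR2F, a small proline-rich protein of the cornified envelope, changed by -31.7, -31.7 and -33.8 points, and RNF215, a RING finger protein, by -31.4, -32.1 and -48.2 points. The promoters of the zinc finger genes ZNF432 and ZNF841 overlap and count as 1 region, and ZNF432 changed by -36.1, -39.4 and -36.1 points. SUPT4H1, RNF215, ZNF432 and ZNF841 have another protein-coding gene within 1 kb or across their promoter. These 10 promoters held 5 to 19 CpGs, and their Wilson 95% intervals reached 2.46 to 11.2 points to either side.

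Only 10 promoters (0.0584%) were back in all clones, of 6248 that had lost 10 points or more at Knockdown in every clone. PDCD1LG2, which encodes the PD-1 ligand PD-L2, had the largest loss shared by all clones among them, 17.1 points or more in each. Its promoter read 77.5%, 78.8% and 61.6% at Baseline, 53.0%, 55.6% and 44.4% at Knockdown and 75%, 77.0% and 56.6% at Recovery. RNF135, a ubiquitin ligase that acts on RIG-I, went from 49.3%, 47.4% and 47.1% to 38.0%, 34.97% and 30.8% and back to 49.8%, 48.6% and 43.5%. SPINK2, a serine protease inhibitor, read 42.9%, 51.4% and 43.6% at Baseline and 43.5%, 48.4% and 42.7% at Recovery. At RNF135 and SPINK2 the Baseline and Recovery values overlapped between clones. Wilson 95% intervals of the 10 back promoters reached 1.04 to 9.33 points to either side, so counting error can exceed the 5-point limit. Over all promoters, changes from the 5th to the 95th percentile ran from -8.51 to 6.19 points in R1 and from -8.24 to 5.74 in R2. The part of read number in the small count of back promoters was not tested.

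The other back promoters were those of SPATA46, ADAMTS19 (a metalloprotease), DPYSL3 (a collapsin response mediator), FILIP1L, SERP2 and the zinc finger genes ZNF358 and ZNF607. ADAMTS19 went from 98.7%, 97.9% and 95% to 86.0%, 78.1% and 72.8% and back to 94.1%, 97.1% and 93.5%. Being within 5 points was not the same as showing no change. ZNF358 read 98.5%, 98.8% and 99.0% at Baseline and 94.9%, 97.4% and 94.1% at Recovery and was called lower (edgeR adjusted p = 0.0031), as was SERP2 (edgeR adjusted p = 0.0307). The other 8 were not called, which does not show that they were the same. DPYSL3 changed by -2.93, -4.72 and -3.83 points in the clones, whereas its change was -23.0 points in R1 and -6.43 points in R2. Without Cl.9 there were 187 back promoters, without Cl.3 72 and without Cl.6 50.

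**Figure D4:**
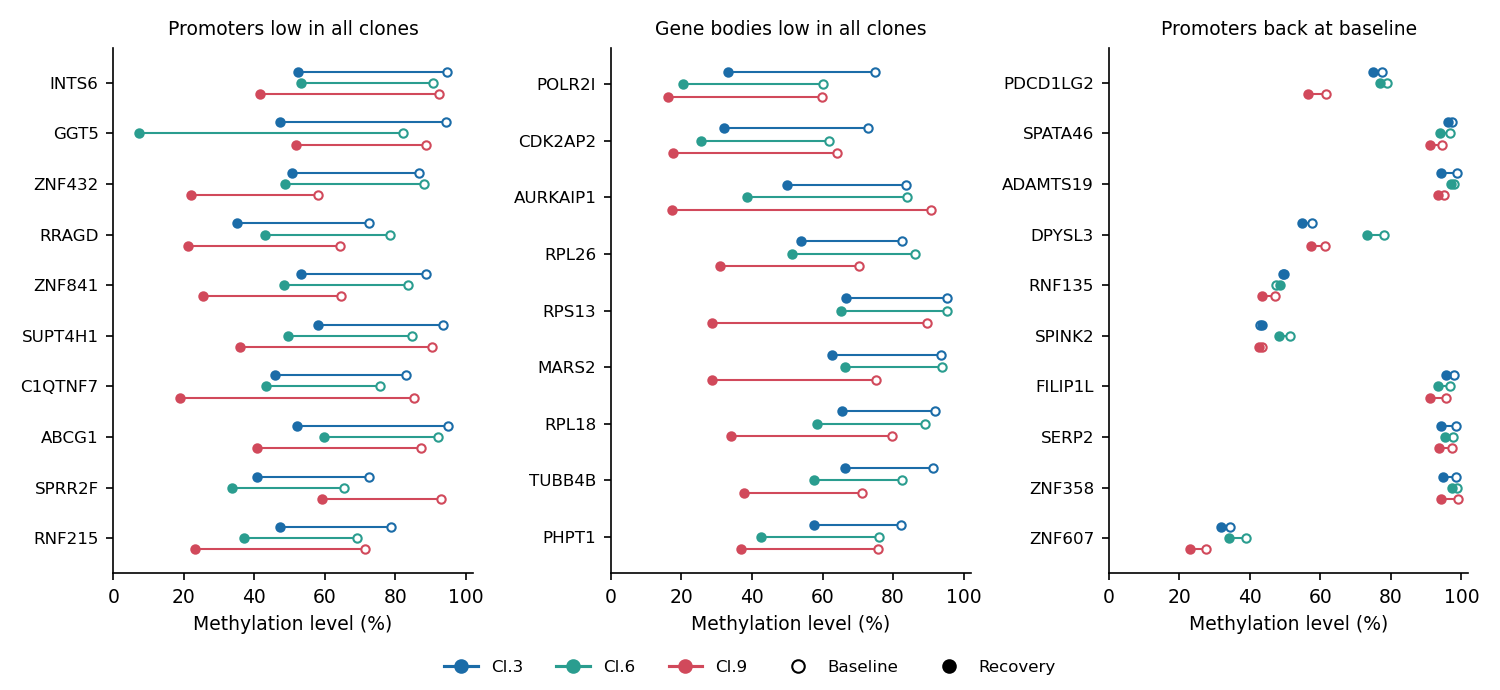
Methylation level (%) at Baseline (open circles) and Recovery (filled circles) in Cl.3, Cl.6 and Cl.9 for 10 promoters and 9 gene bodies with the largest shortfalls shared by all clones and for the 10 promoters that were back at Baseline. Each line joins the 2 libraries of 1 clone; GGT5 in Cl.6 drops furthest among the promoters, to 7.32%, and the open and filled circles of the back promoters nearly coincide.

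A further 2802 promoters (16.4%) never moved by more than 5 points at either stage in any clone. These were promoters that were unmethylated to begin with, with a median lowest Baseline value of 0.569% and 63.6 CpGs per kb. Being within 5 points did not keep them from being called, since 1158 were called lower, and 393 without Cl.6. No promoter, gene body or window ended 10 points or more above Baseline in every clone.

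Gene bodies, which began 1 kb after the 5′ end and reached the 3′ end, fell nearly everywhere by moderate amounts. Of 17430, 16512 were called lower (94.7% of all), and in 89.6% all Recovery values lay below all Baseline values. None was called higher by edgeR, also at an unadjusted p under 0.05, and 1 by limma. Without Cl.6 the count called lower was 3139. The median change was -6.64, -8.99 and -16.8 points. No gene body was back at Baseline in all clones, of 14371 that had lost 10 points or more at Knockdown, and 23 (0.132%) never moved by more than 5 points. Without Cl.9, 214 were back.

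The gene bodies that missed 20 points or more in every clone were few and short. There were 47 (0.27%), with a median annotated body length of 2857 bp against 31195 bp over all gene bodies and 24.0 CpGs per kb against 12.4. Among bodies under 2 kb 5.48% were low, among those of 2 to 5 kb 1.89%, and none of the 7400 bodies of 20 to 100 kb or of the 3486 longer ones was. The part of their smaller read number in this count was not tested, and the Wilson 95% intervals of the 9 bodies named next reached 1.90 to 6.17 points to either side. The last body inside the threshold was TMEM276 with a smallest deficit of 20.1 points and the first outside was POLE3 with 19.97. Without Cl.3 the count was 218.

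The shortfall in these bodies was deep in each clone. POLR2I, a subunit of RNA polymerase II, went from 74.9%, 60.1% and 59.9% to 33.2%, 20.5% and 16.3% in Cl.3, Cl.6 and Cl.9 (chr19:36113709-36114213, 22 CpGs, log2 odds ratio -2.69 ± 0.37, SE, edgeR adjusted p = 2.627e-11). AURKAIP1, a protein of the mitochondrial ribosome, went from 83.6%, 84.0% and 90.8% to 50%, 38.7% and 17.3%. RPS13, a protein of the small ribosomal subunit, went from 95.2%, 95.2% and 89.7% to 66.5%, 65.3% and 28.7%. In all 3 genes every Recovery value lay below every Baseline value, as in 45 of the 47 low bodies. This follows in part from the choice of a large fall in every clone.

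RPL26, a protein of the large ribosomal subunit, went from 82.6%, 86.2% and 70.4% to 53.9%, 51.5% and 30.9%, on 69 CpGs. RPL18 went from 91.9%, 89.1% and 79.6% to 65.6%, 58.4% and 34.0%. The other 4 of the 9 were CDK2AP2, MARS2 (the mitochondrial methionyl-tRNA synthetase), TUBB4B (a beta-tubulin) and PHPT1 (a phosphohistidine phosphatase). CDK2AP2 changed by -40.9, -36.3 and -46.3 points, MARS2 by -30.9, -27.6 and -46.6, TUBB4B by -24.9, -25.1 and -33.5 and PHPT1 by -24.6, -33.7 and -38.9. At RPS13 the bulk populations changed by -8.25 points each, and at RPL26 by -1.63 and -3.51 points. POLR2I, CDK2AP2, RPL26, RPL18, TUBB4B and PHPT1 have another protein-coding gene within 1 kb of the body or across it.

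Of the 9 bodies, 3 belonged to cytosolic ribosomal proteins, and the list of these genes is described here by counts and medians with no test. Of 75 ribosomal protein bodies measured, 12 (16.0%) were 20 points or more below Baseline in every clone, against 0.27% of all bodies, and 69 (92.0%) were called lower, close to the 94.7% of all bodies. The median change was -11.7, -13.3 and -23.6 points in Cl.3, Cl.6 and Cl.9, against -6.64, -8.99 and -16.8 points over all bodies. Ribosomal protein genes are short, and within bodies of 2 to 5 kb 10 of 32 were low, against 1.89% of all bodies of that length. In bodies under 2 kb 2 of 9 were low against 5.48%, and of the 22 of 5 to 20 kb and the 12 longer ones none was. Many processed pseudogenes resemble the exons of these genes, so exonic and intronic CpGs were also counted apart. Exonic CpGs were low in 11 of 74 genes and intronic CpGs in 13 of 63. Of the 12 low bodies, 8 were low by their exons, and 5 of the 8 with enough intronic CpGs were low by their introns. The largest deficit shared by all clones was that of RPL26 and the smallest that of RPL10, which changed by -0.93, -9.79 and -6.45 points (edgeR adjusted p = 0.1854).

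Position within the gene went with the size of the shortfall. Over all protein-coding genes, CpGs 1000 to 2000 bp downstream of the 5′ end changed by -9.23, -11.8 and -19.5 points, against -1.87, -4.27 and -4.13 points in the first 500 bp and -6.49, -8.95 and -16.6 points at 5000 to 10000 bp. This is the stretch where methylation rises from the unmethylated start to the methylated body. In ribosomal protein genes the same stretch went from 44.1%, 45.5% and 36.1% to 26.8%, 27.3% and 14.3%, a change of -17.3, -18.2 and -21.8 points. In R1 and R2 it changed by -1.58 and -1.57 points over all genes and by -3.24 and -2.77 points in ribosomal protein genes. In both sets of genes the level on this rise was lower at Recovery in every clone. A body as measured here starts 1 kb from the 5′ end and so holds this stretch. Upstream, over all genes, CpGs 1000 to 2000 bp before the 5′ end changed by nearly as much, -8.03, -10.9 and -19.0 points.

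**Figure D5:**
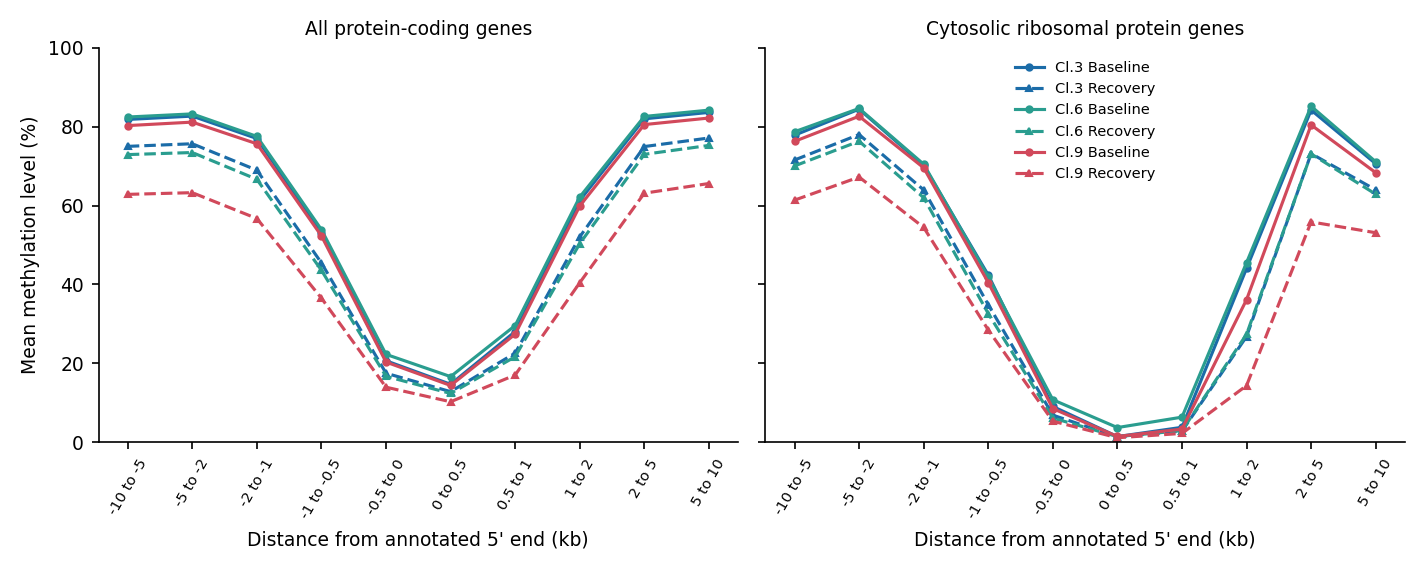
Mean methylation level (%) by distance from the annotated 5′ end (kb) at Baseline (solid lines) and Recovery (dashed lines) in the 3 clones, over all protein-coding genes (left) and cytosolic ribosomal protein genes (right). The gap between solid and dashed lines in ribosomal protein genes is widest on the rise 1 to 5 kb downstream, where Cl.9 reads 36.1% at Baseline and 14.3% at Recovery between 1 and 2 kb, and it closes in the unmethylated first 500 bp.

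The other gene lists held from 0 to 8 promoters 20 points below Baseline in all clones, and none of them was tested as a list. Of 208 olfactory receptor promoters, 8 (3.85%) were low against 1.28% of all promoters, with a median change of -8.55, -12.2 and -19.2 points. Olfactory receptors are best known as odorant receptors of the nose, and OR2A5 had the largest shared deficit, from 88.9%, 83.7% and 86.8% to 52.0%, 55.8% and 40.4%. Of 32 genes known for silencing by promoter methylation in colorectal cancer, 24 promoters were called lower (75%, against 58.4% of all promoters and 91.4% of those with 80% or more at every Baseline), and 1 was low, TIMP3, a metalloproteinase inhibitor, which went from 88.4%, 86.8% and 93.6% to 68.2%, 54.8% and 53.4%. HLTF, a chromatin remodeller on that list, changed by 7.17, -7.81 and 3.39 points. Their median Recovery level of 72.5%, 65.5% and 56.0% in Cl.3, Cl.6 and Cl.9 was well above that of unmethylated promoters.

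In each of the next 4 lists, of 22 to 52 promoters, 1 was low, against 1.28% of all promoters, and nothing is read from a single member. Of 36 HOX promoters it was HOXC6, which went from 92.4%, 92.7% and 79.8% to 63.7%, 67.5% and 41.6%. Of 52 promoters of clustered protocadherins, cell adhesion genes of neurons, 1 was low, PCDHB14, with changes of -22.3, -24.0 and -23.4 points. Of 27 promoters of interferon and double-stranded RNA response genes 1 was low, ZBP1, a sensor of Z-form nucleic acid, which went from 79.5%, 74.1% and 58.8% to 59.4%, 51.5% and 33.0%. IRF9 of the same list changed by 3.89, -6.12 and -13.4 points and was not called (edgeR adjusted p = 0.4087). Of 22 promoters of large late-replicating genes 1 was low, NAALADL2. Of 237 promoters of zinc finger genes on chromosome 19, 2 were low and 2 were back, against 1.28% and 0.0584% of all promoters. The 2 low ones are the overlapping promoters of ZNF432 and ZNF841, which count as 1 region.

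No promoter was low among the 8 secreted Wnt antagonists, 21 germline genes, 18 imprinted genes, 22 colon epithelium genes, 23 genes of the DNA methylation machinery and 19 housekeeping genes measured. In that order 87.5%, 76.2%, 44.4%, 68.2%, 39.1% and 47.4% of them were called lower, some above and some below the 58.4% of all promoters. At the 1.28% low of all promoters, lists this short would often hold no low member, so nothing is read from these. Only 5 of the 23 methylation machinery promoters and 2 of the 19 housekeeping promoters read 50% or more at every Baseline. A promoter with a lowest Baseline under 20% could not be low, since low means 20 points or more below Baseline in every clone. In CDX1, an intestinal transcription factor, mC still went from 98.3%, 98.8% and 97.2% to 80.8%, 74.5% and 71.3%, and in MOV10L1, a germline helicase, from 86.4%, 92.2% and 85.1% to 68.1%, 65.2% and 57.5%. At the imprinted PEG10 the promoter changed by 16.3, 11.1 and -1.07 points (edgeR adjusted p = 0.2054). Promoters that moved by no more than 5 points at either stage made up 8 of the 23 methylation machinery genes, 7 of the 19 housekeeping genes and 30 of the 78 ribosomal protein genes, against 16.4% of all promoters. Among gene bodies of these lists, OR10A2 was the 1 low member outside the ribosomal proteins, with changes of -23.0, -24.6 and -37.2 points.

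The genes that the study targets or uses as readouts ended at different points between or beyond Knockdown and Baseline. At the promoter and body of UHRF1, the body of DNMT1 and the promoter of SFRP1, Recovery lay between these stages in every clone. Promoters were placed by annotation, and whether transcription starts there in these cells was not tested. The UHRF1 promoter read 93.5%, 92.3% and 91.6% at Baseline and 88.0%, 86.0% and 79.9% at Recovery (edgeR adjusted p = 0.0049), and its body 88.2%, 87.6% and 84.6% and 81.0%, 79.2% and 68.6%. The DNMT1 promoter changed by -8.11, -14.7 and -14.4 points and was not called (edgeR adjusted p = 0.0833). It read 60.4%, 59.9% and 44.3% at Recovery, close to the 59.9%, 57.6% and 39.5% of Knockdown. The DNMT1 body changed by -5.22, -7.24 and -14.2 points (edgeR adjusted p = 0.0013). SFRP1, a Wnt antagonist silenced in many colorectal cancers, went from 90.2%, 95% and 91.9% to 81.9%, 87.9% and 66.9% at its promoter (edgeR adjusted p = 0.006). The body of STC2, a secreted glycoprotein, went from 78.0%, 74.9% and 79.1% to 65.0%, 66.7% and 62.9%, which in Cl.3 was no higher than the 66.0% of Knockdown. Its promoter was unmethylated, at 1.86%, 3.43% and 0.456% at Baseline, 1.02%, 0.701% and 0.524% at Knockdown and 0.936%, 0.435% and 0.377% at Recovery, and its call (edgeR adjusted p = 0.0334) includes the Cl.6 Baseline library that read high at unmethylated DNA.

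The change at Recovery was then compared directly between the clones and the bulk populations by an edgeR interaction test over 10 libraries. It was more negative in the clones at 23400 windows (83.3%), 2478 of 17083 promoters (14.5%) and 14692 gene bodies (84.3%), and less negative at none of them. At an unadjusted p under 0.05, 0 windows, 13 promoters and 0 gene bodies were less negative in the clones. Without Cl.6 the numbers more negative were 0, 1918 and 8248, without Cl.9 they were 26710, 911 and 15499 and without Cl.3 26999, 4805 and 16335, and limma called 0 promoters.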

How the data were processed

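Bisulfite converts unmethylated but not methylated cytosine, so methylated reads are those in which the cytosine is preserved. The authors aligned reads to hg38 with the Meth10X pipeline and deposited raw counts of methylated and of all reads per CpG, with both strands summed, in 3 tables of which 30 columns were used. For every library the authors deposited a list of domains, in which PMDs, UMRs and low-methylated regions were called with MethylSeekR (settings not given in the sources used here). HMDs were the remaining DNA, taken with bedtools 2.25.0, where its average mC passed a minimum, so a stretch below that minimum at Recovery cannot be an HMD again. The class column of these lists was used as deposited.

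Titles in the labels gave shRNA, population and stage, and each Recovery library was set against the Baseline of its own clone. CpGs with 5 or more reads in all libraries compared were used. Counts were summed over windows of 100 kb (50 CpGs), promoters (1 kb upstream to 100 bp downstream, 5 CpGs) and bodies (20 CpGs) of GENCODE release 44 protein-coding genes, with at least 50 reads in every library, and tested with edgeR 4.0.16 (glmQLFit, glmQLFTest, R 4.3.3) with the clone as a block. Log2 odds ratios are of methylated to unmethylated reads. Windows, promoters or bodies were low at 20 points or more below Baseline in every clone and back within 5 points after a loss of 10 or more at Knockdown. Those named were the 10 (windows, up to 5) with the largest smallest deficit among called features with at least 50% at every Baseline, those back, members with the largest and smallest deficit of gene lists, and DNMT1, UHRF1, SFRP1 and STC2. Some of them are not reported here. Genome-wide values were tested by exact permutation over clones. limma 3.58.1 (pseudocount 1), other minimums, other windows and leaving out clones were alternatives.

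Members and lists were chosen with earlier results of these data known. The clone block rests on the labels. Deviations from the stage mean correlated between Baseline and Recovery of the same clone across windows with r of 0.843, 0.765 and 0.662. No 2 clones had duplicate libraries at Baseline or Recovery. p-values measure the spread between 3 clonal lines with 1 library each. Those of edgeR also draw on a spread pooled over all regions of a kind, so they can be small with only 3 clones. Intervals cover counting error only.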

Additional observations from a re-analysis of the deposited data

Results flagged for a closer look

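An edgeR interaction test of the change at Recovery picked out results in which the shUHRF1 clones and the shDNMT1 bulk populations differed, and the groups compared also differ in kind of population and count table. The change was more negative in the clones at 23400 windows, 2478 promoters and 14692 gene bodies (Benjamini-Hochberg adjusted p under 0.05).

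Among the named features the difference is a log2 odds ratio, clones minus bulk. The windows, promoters and gene bodies below, other than those of DNMT1, UHRF1, SFRP1 and STC2, were chosen for a large fall in the clones, so a difference from the bulk populations follows in part from that choice and the values are a description. It was -1.67, -1.71 and -1.52 in the 3 neighbouring windows on chromosome 5 and -1.52 in the GLYAT window. Among promoters it was -3.33 at INTS6, -3.18 at GGT5, -2.99 at ABCG1, -2.65 at SUPT4H1, -2.59 at C1QTNF7, -2.51 at ZNF841, -2.19 at RNF215, -2.04 at SPRR2F, -1.84 at RRAGD and -1.60 at UHRF1. The promoter of ZNF432, which overlaps that of ZNF841, was not among those called in this test. Among gene bodies it was -3.33 at AURKAIP1, -2.63 at RPS13, -2.62 at POLR2I, -2.32 at MARS2, -2.30 at CDK2AP2, -2.13 at RPL26, -2.12 at RPL18, -1.76 at TUBB4B and -1.62 at PHPT1. It was smaller at the bodies of DNMT1 (-0.93), SFRP1 (-0.93), STC2 (-0.92) and UHRF1 (-0.89). Without Cl.6 no window passed the same test.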

How the results depend on the processing

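The genome-wide change, its difference from the bulk populations and the contrasts of HMDs with PMDs and of low with high density kept their direction under every alternative run, and without Cl.9 the genome-wide change was -8.53 points. The 3 clones, 1 library each and a Cl.6 Baseline that read high at unmethylated DNA limit the counts, and promoters with few CpGs limit their precision. Causes were not tested unless the setting itself defines the count.

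The share of highly methylated CpGs short in all clones was 1.86% at 10 or more reads, 4.61% for a loss of 0.2, 0.255% for a loss of 0.5 and 2.78% to 5.87% with 1 clone left out.

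Without the replicate block, edgeR called 13841 windows and 2342 promoters lower, and the interaction test called 0 windows, 0 promoters and 0 gene bodies. The block changed no call's direction. With 1 clone left out, calls of lower ranged from 0 to 26995 windows, 5361 to 10452 promoters and 3139 to 16399 gene bodies, and interaction calls from 0 to 26999, 911 to 4805 and 8248 to 16335. Windows of 50 kb gave 52939 calls, a minimum of 200 reads 5605 promoters, and limma 0 promoter interactions. Calls of higher were 1 promoter and 1 gene body with all 15 libraries, 2 promoters with all CpGs whatever their reads (chosen after seeing the data), 1 gene body with limma and 0 to 2 promoters with 1 clone left out. Interaction calls of the other sign were 3 promoters with all 15 libraries, and 1 to 2 promoters and 0 to 2 gene bodies with 1 clone left out.

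Low features numbered 2814 windows, 2574 promoters and 2054 gene bodies at 10 points, 0, 14 and 3 at 30 points, and 79 promoters at 200 reads. With 1 clone left out they ranged from 4 to 103, 250 to 946 and 47 to 218. Back features numbered 0 windows and 0 promoters within 3 points, 311, 194 and 200 within 10 points, 4 promoters at 200 reads, and 3 to 181, 50 to 187 and 11 to 214 with 1 clone left out. Of the values of named features, 918 kept call and direction under an alternative, 59 lost the call, 14 gained it and 0 reversed.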
